A study of Homo sapiens with 8 samples.

Results

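The JunD peaks that lay far from genes made up 17455 of the 59994 peaks on chromosomes 1 to 22, or 29.1% (95% interval 28.7 to 29.5). A peak was taken as far when its middle lay inside no gene of the deposited expression table, when it overlapped no exon of that table, and when the nearest gene start, the 5′ end of the outermost exon, was more than 50 kb away. The whole list held 61360 peaks, of which 1366 lay outside chromosomes 1 to 22. The peaks come from BEAS-2B, an established human cell line derived from bronchial epithelium by viral transformation. For ChIP sequencing the cells were kept in 8% cigarette smoke extract (CSE) for 24 h, and 1 library precipitated with a JunD antibody was compared with 1 input library. RNA was sequenced from BEAS-2B cells transfected for 12 h with the plasmid pcDNA3.1-JunD or with its empty vector and then put in CSE for 24 h, with 3 libraries in each group. All groups were thus exposed to CSE, and none of the libraries used here came from unexposed cells. The title of the series sets these data against the question of how JunD acts in airway inflammation caused by cigarette smoke.

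JunD is one of the Jun proteins of AP-1, a family of transcription factors that bind DNA as pairs of Jun, Fos, ATF or Maf proteins. Their preferred element is TGACTCA, and a related element, TGACGTCA, is bound by pairs that hold an ATF or CREB protein. AP-1 is known for binding at enhancers, which can lie far from the genes they act on, and for its response to stress and growth signals. Which gene a distant site acts on cannot be read from distance, so the nearest gene below is a position and not a target.

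The label of these peaks holds only for the genes of the expression table. That table lists a gene only if it had a read: 0 of its 29534 names are at 0 in every library. Set against the RefSeq annotation of GRCh38.p14, 6160 of the 17455 far peaks (35.3%, interval 34.6 to 36.0) lay inside a RefSeq gene, 2770 (15.9%) inside a protein-coding one and 3368 (19.3%) inside a long non-coding RNA gene. Only 3627 (20.8%) lay in no RefSeq gene and more than 50 kb from both ends of every such gene. The peaks are therefore far from the gene starts used here, and many are not intergenic by annotation. Some lay inside genes with reads: of 837 coding RefSeq genes over a far peak, 87 had their name in the expression table.

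RefSeq promoter windows that a far peak overlaps give sequence at a few of the far peaks. The 75 windows so overlapped, each 300 bases from 250 before a RefSeq start to 50 after it, belonged to 70 far peaks, and 0 of their gene symbols were in the expression table. That absence follows largely from the rule, which leaves out peaks near the starts of table genes. The windows came from 21 of the 22 chromosomes. Whole windows were searched, also where a peak covered only part, so the shares below describe windows and not the sequence under peaks. The AP-1 element TGACTCA, searched on both strands, so also as TGAGTCA, was in 9 of the 75 windows (12.0%, interval 5.64 to 21.6), against 4.91% of all 33725 windows. Among the 9, the windows of LINC02134 and LOC105371237 hold the same copy under the same peak. The 9 are thus not all separate sites, which the interval does not allow for. The share was 8.00% of the 75 windows under near intergenic peaks (2.99 to 16.6) and 7.23% of the 83 under intronic peaks (2.70 to 15.1), intervals that overlap that of far peaks. TGACGTCA, no copy of which contains TGACTCA, was in 0 of 75 (interval up to 4.80%), against 1.87% of all windows. Median GC content was 50.3% in the windows under far peaks and 58.7% in all windows, and its part in these shares was not tested.

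The stretches that follow are given as the bases before the RefSeq start that lie inside the far peak, 5′ to 3′ on the strand of the gene, from the RefSeq promoter table of GRCh38.p14. HFM1, BMP7-AS1 and LOC107986629 are shown because their peaks had q below 0.05, and LOC107986629, SLC30A10, LINC02134 and LOC105369366 because the overlapped stretch holds the AP-1 element, which is in capitals.
HFM1, chr1:91404760-91404985, minus strand: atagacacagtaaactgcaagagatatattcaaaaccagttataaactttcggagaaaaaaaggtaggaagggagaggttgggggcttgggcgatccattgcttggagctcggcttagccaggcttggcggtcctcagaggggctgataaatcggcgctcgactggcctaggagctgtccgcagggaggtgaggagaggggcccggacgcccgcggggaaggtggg
BMP7-AS1, chr20:57213446-57213540, plus strand: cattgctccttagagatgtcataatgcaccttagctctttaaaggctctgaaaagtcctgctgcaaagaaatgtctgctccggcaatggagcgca
LOC107986629, chr6:108738018-108738261, plus strand: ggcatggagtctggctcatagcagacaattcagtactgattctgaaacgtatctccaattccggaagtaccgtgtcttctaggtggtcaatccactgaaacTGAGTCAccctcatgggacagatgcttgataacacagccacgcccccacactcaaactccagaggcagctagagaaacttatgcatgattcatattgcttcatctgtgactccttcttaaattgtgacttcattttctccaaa
SLC30A10, chr1:219959148-219959348, minus strand: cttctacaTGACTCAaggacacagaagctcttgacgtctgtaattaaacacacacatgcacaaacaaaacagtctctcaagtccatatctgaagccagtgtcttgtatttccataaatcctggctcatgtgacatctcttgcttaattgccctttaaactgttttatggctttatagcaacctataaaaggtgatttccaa
LINC02134, chr16:47965439-47965600, plus strand: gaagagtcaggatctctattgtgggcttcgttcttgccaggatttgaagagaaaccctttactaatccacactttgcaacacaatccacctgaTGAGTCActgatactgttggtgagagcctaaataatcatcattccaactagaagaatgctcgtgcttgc
LOC105369366, chr11:69166551-69166800, plus strand: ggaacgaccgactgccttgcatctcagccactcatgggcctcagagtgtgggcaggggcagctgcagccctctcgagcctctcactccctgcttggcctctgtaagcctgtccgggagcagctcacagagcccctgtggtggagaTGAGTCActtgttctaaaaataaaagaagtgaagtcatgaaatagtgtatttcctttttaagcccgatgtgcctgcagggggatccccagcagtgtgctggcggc

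The peak at HFM1, which codes for a DNA helicase of meiosis, had pileup 8, fold enrichment 5.33 over background and q 0.00512, and the printed stretch holds no AP-1 element. Pileup is the depth of coverage at a peak and q its false discovery rate, both as the authors' peak caller gave them. The peak at the BMP7 antisense RNA had pileup 7, fold enrichment 4.49 and q 0.0491, also without the element in the 95 printed bases. At LOC107986629 the element began 143 bases before the start, in a peak of pileup 11, fold enrichment 3.95 and q 0.0463. The other 3 peaks had weaker evidence, with pileup 5 and q 0.179 at SLC30A10, a manganese exporter, pileup 4 and q 0.348 at LINC02134, and pileup 6 and q 0.566 at LOC105369366. The element at LINC02134 also lies before the start of LOC105371237, which runs the other way. Among all 58 overlaps with 50 or more bases before the start, 5 held the element, and 2 of these 5 are that shared site.

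Far peaks were sparse for the length of sequence they come from. The positions that meet the rule, here called the far space, covered 1133 Mb, or 40.4% of the 2804 Mb between the first and the last peak or exon of each chromosome. Far peaks lay at 15.4 per Mb of this space and other peaks at 25.5 per Mb of the remaining space, a ratio of 0.605 (interval 0.594 to 0.616). The interval covers counting error only, since there is 1 precipitated library. The ratio was below 1 on 22 of 22 chromosomes, and so was its whole interval. It ran from 0.406 (0.340 to 0.482) on chromosome 22 to 0.738 (0.693 to 0.787) on chromosome 3. Bases of unknown sequence were not removed from these lengths. Leaving out windows of 1 Mb without a peak gave 0.633.

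**Figure D1:**
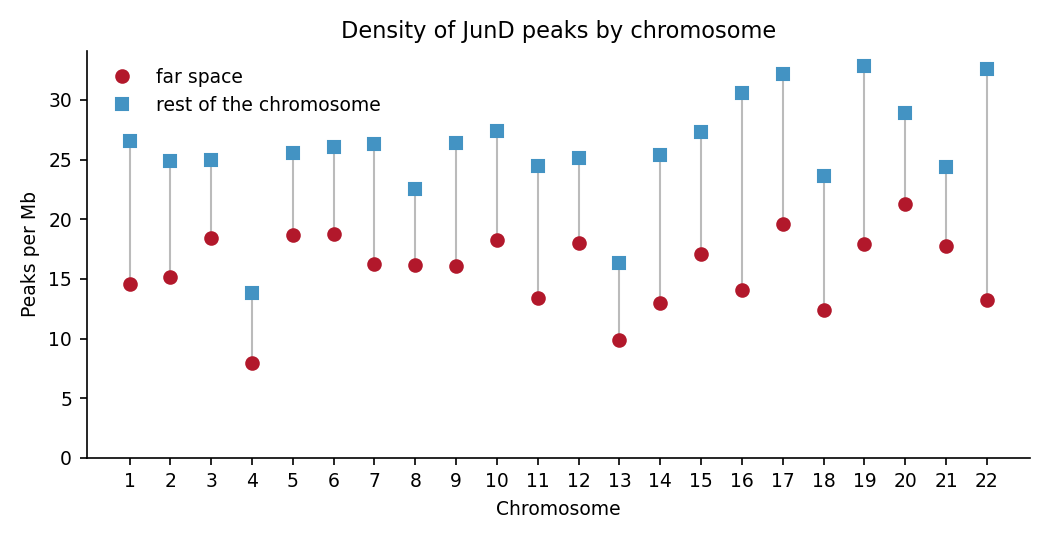
Peaks per Mb on each chromosome, for far peaks in the far space (circles) and for all other peaks in the remaining space (squares). The far value is lower on 22 of 22 chromosomes, and chromosomes 4 and 13 are lowest in both.

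Far density was lowest on chromosome 4, at 7.92 per Mb, and on chromosome 13, at 9.84 per Mb, where other peaks lay at 13.8 and 16.3 per Mb. Chromosome 20 had the densest far peaks, at 21.3 per Mb, and there other peaks lay at 28.9 per Mb. Far and other density did not always go together, since chromosomes 22 and 16 had 13.2 and 14.1 far peaks per Mb beside 32.6 and 30.6 other peaks per Mb. Over the 22 chromosomes, which share one library and one input, far and other density had a Pearson r of 0.618 and a Spearman rho of 0.433, given as a description. The number of copies of each chromosome in these cells was not analysed here.

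Density was lower at greater distance from the nearest start. Bases of unknown sequence and windows without a peak were not removed from the distance ranges, and their part in the trend was not tested. The median far peak lay 175 kb from a start and the farthest 3663 kb. Far space at 50 to 100 kb held 21.7 peaks per Mb, and at 100 to 250 kb it held 18.5. Beyond that the density was 14.4 per Mb at 250 to 500 kb, 10.9 at 500 to 1000 kb and 5.87 at 1000 to 4000 kb, where 626 peaks lay. Far space more than 4000 kb from a start, which held no peak, was not counted in that last range. The share of far peaks with q below 0.05 did not fall throughout. It was 2.86% (interval 2.41 to 3.37) at 50 to 100 kb and 2.15% at 100 to 250 kb. At 250 to 500 kb it was lowest, at 1.92%, and at 500 to 1000 kb it was 2.12%. In the farthest range, where only 17 peaks had such a q, it was 2.72% (1.59 to 4.31). Mean width went from 308 to 293 bp between the nearest and the farthest range.

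**Figure D2:**
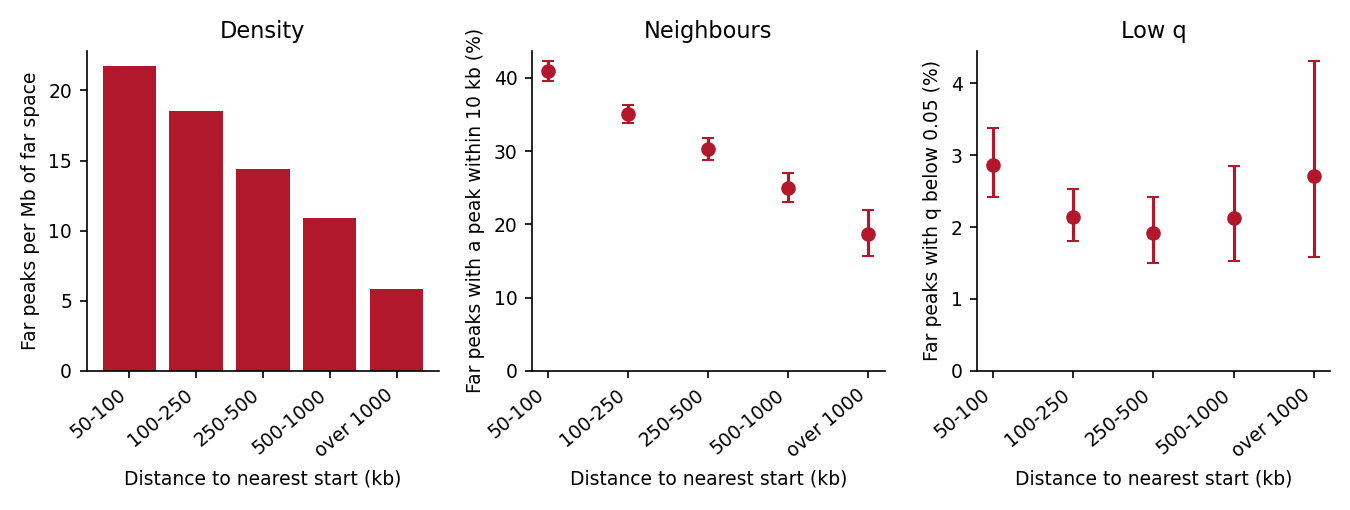
Far peaks by distance to the nearest gene start, in 5 ranges: peaks per Mb of far space (bars), share with another listed peak within 10 kb and share with q below 0.05 (points with exact 95% intervals). Density goes from 21.7 to 5.87 per Mb and the share with a neighbour from 41.0% to 18.7%. The q share is lowest at 250 to 500 kb (1.92%), and its intervals overlap. The last range, marked as over 1000 kb, counts space up to 4000 kb only.

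Split by the RefSeq annotation into 3 sets, far peaks were sparsest away from every gene. All 3 sets were below the 25.5 per Mb of other peaks. Far peaks inside RefSeq genes lay at 17.3 per Mb and those outside but within 50 kb of such a gene at 17.9 per Mb. The 3627 peaks away from every RefSeq gene lay at 10.4 per Mb of their own 349 Mb. Bases of unknown sequence and windows without a peak were not removed from these lengths either. Median pileup was 5 and median fold enrichment 3.12 in each of these 3 sets, and q was below 0.05 for 2.35%, 2.30% and 2.29% of their peaks.

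Pileup of far peaks was low and held few steps. The median was 5 (quartiles 4 and 5) and the mean 4.74, against a mean of 4.93 for the 12024 intergenic peaks within 50 kb of a start, 4.90 for the 24841 peaks in introns and 6.15 for the 1677 peaks within 1 kb of a start. Pileup was 4 or less in 48.0% of far peaks and in 39.96% of all other peaks. A pileup of 6 or more was reached by 17.4% of far peaks (interval 16.9 to 18.0), 25.4% of near intergenic peaks, 24.8% of intronic peaks, 30.8% of the 3997 peaks over exons and 53.1% of peaks at starts. The far share was below the near and the intronic share on 22 of 22 chromosomes. It ranged from 8.89% on chromosome 4 to 29.5% on chromosome 20. Over the 5 distance ranges it was 20.9% at 50 to 100 kb, 17.4% at 100 to 250 kb, 14.1% at 250 to 500 kb, 14.8% at 500 to 1000 kb and 17.6% past 1000 kb.

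**Figure D3:**
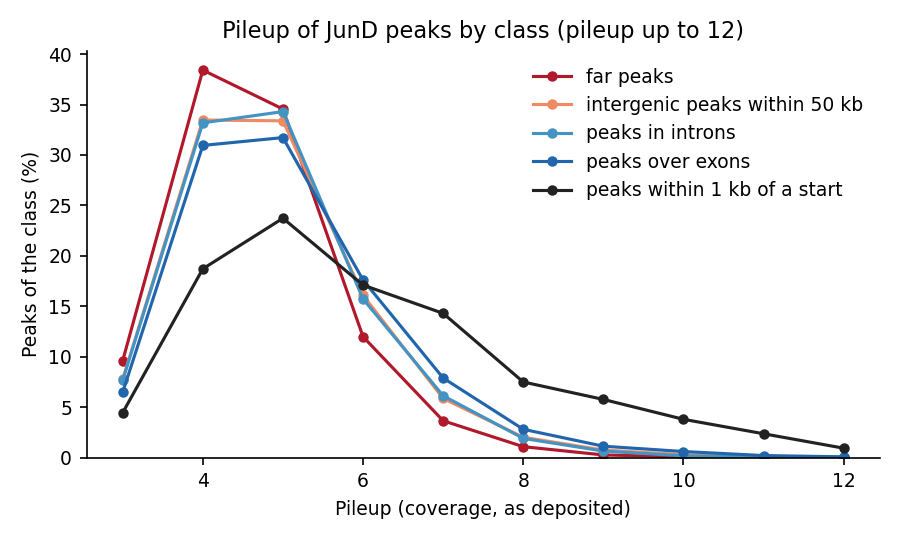
Share of peaks at each pileup value up to 12, for far peaks and the 4 other classes. Far peaks are the class with the largest share at pileup 4 (38.4%), and the class at gene starts is shifted to higher values.

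Fold enrichment had a median of 3.12 in far peaks (quartiles 2.88 and 3.69) and 3.12 in all other peaks. A fold of 4 was reached by 8.75% of far peaks (interval 8.33 to 9.18), 8.86% of intronic peaks, 9.21% of peaks over exons, 9.24% of near intergenic peaks and 10.6% of peaks at starts (9.18 to 12.2). The background behind each fold was taken as pileup plus 1, divided by fold, less 1, a form whose lowest value was 0.602 at each pileup from 3 to 8. Its median was 0.627 in far peaks and 0.752 in the others. It stood at that lowest value in 26.6% of far peaks (25.9 to 27.3), 14.2% of near intergenic peaks, 12.8% of intronic peaks and 5.72% of peaks at starts. Among peaks of pileup 5 alone, the share was 26.8% (25.7 to 27.9) of far peaks, 13.9% (12.8 to 15.01) of near intergenic peaks and 12.9% (12.2 to 13.7) of intronic peaks. The values are coarse: the 17455 far peaks had only 349 distinct fold enrichments and 143 distinct q-values. The commonest set of values, pileup 4, fold 3.12 and q 0.348, was that of 2045 far peaks (11.7%).

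Few far peaks had a low false discovery rate. A q below 0.05 was given to 404 (2.31%, interval 2.097 to 2.55), against 2.79% (2.499 to 3.10) of near intergenic peaks, 2.39% (2.20 to 2.59) of intronic peaks and 5.55% (4.50 to 6.75) of peaks at starts. The interval of far peaks overlaps that of the near and the intronic peaks. For 90.7% of far peaks q was 0.1 or more. Most of the counts here thus rest on peaks that the authors' list holds at a high false discovery rate.

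Width of far peaks was mostly at the smallest value in the list, 251 bp. That width was given to 54.9% of far peaks (interval 54.1 to 55.6) and to 48.3% of other peaks. Mean width was 301 bp in far peaks, 313 bp in near intergenic peaks and 309 bp in intronic peaks, and the far mean was below the near mean on 22 of 22 chromosomes and below the intronic mean on 21. The widest far peak, chr10:91556692-91558041, spanned 1350 bp with pileup 5 and q 0.414, 75.7 kb from PPP1R3C, a subunit that directs a phosphatase to glycogen. The next 4 spanned 980 to 1195 bp, had pileups of 5 or 6 and q of at least 0.0721. One of them, at chr11:47345050-47346135, lies in MYBPC3, a gene of heart muscle. The widest peaks were thus not the tallest.

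The tallest far peaks were a group apart. Pileup reached 20 in 14 far peaks and in 12 of the 42539 others. The highest, at chr1:125182326-125182678, had pileup 327 but a fold of 2.29, over a background, taken as above, of 142, and it was also the far peak farthest from any start. The next, also on chromosome 1, chr1:143262541-143262891 and chr1:143232932-143233208, had pileups of 162 and 152 with folds of 2.43 and 2.102. After these came chr10:42081543-42081899 with pileup 60, chr7:56373404-56373726 with 55, chr4:49708616-49708866 with 48, chr10:42072671-42072958 with 47, chr4:51712269-51712547 with 38, chr20:28512765-28513074 with 35 and chr19:47909409-47909769 with 29. Median fold over the 14 was 2.47, under the 3.12 of all far peaks. Without these 14 the mean pileup of far peaks was 4.68. Several of the places named lie beside centromeres, where human chromosomes carry long satellite repeats, but repeat content was not analysed here.

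The highest fold enrichments belonged to other peaks. The first was chr14:17160353-17160630, with fold 9.37, pileup 14 and q 5.75e-10, 1466 kb from the nearest start. Then came chr6:58564041-58564349 with fold 6.87, chr8:53618907-53619268 with 6.45, chr18:16369805-16370286 with 6.21, chr4:51717826-51718089 with 6.16, chr7:57202281-57202829 with 6.15 and chr3:195019653-195020127 with 5.76. The last place among the 10 was shared, since 9 peaks had the same fold of 5.62, pileup 8 and q 0.00215. Those 9 lay nearest to INTU, NEIL3, PLK2, CTC-529G1.1, MED23, RP11-573M3.3, LRRIQ1, SPRY2 and TMEM220, at distances from 58.3 kb (NEIL3) to 1031 kb (INTU). Pileup over these 16 peaks ran from 8 to 14. At chr4 the peaks of fold 6.16 and of pileup 38 lay 5.55 kb apart. Repeat content and nearness to centromeres were not analysed for the peaks of highest fold either.

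Peaks on either side of the 50 kb limit had like values. The 5 just inside the far set lay 50.001 to 50.028 kb from the starts of ADGRD2, LINC01138, TGFBI, RP11-713C19.1 and TACC1, with pileups of 4 to 6 and folds of 2.22 to 4.03. The 5 just outside it lay 49.966 to 50 kb from GS1-5L10.1, BARX1, ZIC2, MIR548N and CCDC188, with pileups of 4 to 7 and folds of 2.67 to 4.53.

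Far peaks stood farther from their neighbours than other peaks did. The next listed peak was a median of 17.3 kb away, against 11.9 kb for other peaks. Another peak lay within 10 kb of 34.0% of far peaks (interval 33.3 to 34.7), 45.2% (44.3 to 46.1) of near intergenic peaks and 43.8% (43.2 to 44.4) of intronic peaks, and the far share was below both on 22 of 22 chromosomes. Within 1 kb the shares were 2.84% (2.60 to 3.10) for far and 4.27% (4.08 to 4.46) for other peaks. The share within 10 kb went from 41.0% at 50 to 100 kb from a start to 18.7% past 1000 kb, where far peaks were sparser. By chromosome it ran from 17.4% on chromosome 4 to 48.1% on chromosome 22, whose far density was 13.2 per Mb, and was 41.9% on chromosome 20, the densest. How much of the difference the lower density accounts for was not tested.

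**Figure D4:**
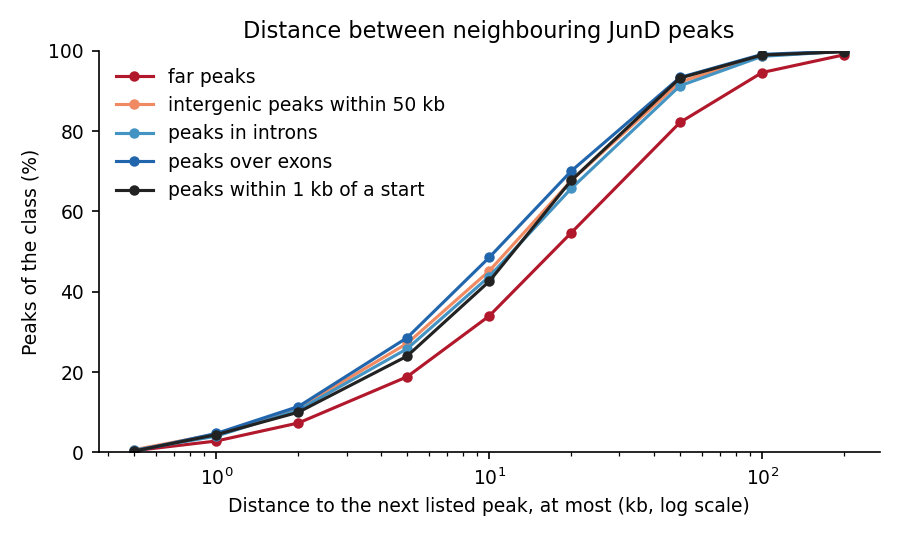
Share of peaks whose next listed peak lies within a given distance (kb, log axis), for far peaks and the 4 other classes. The far line is the lowest from 1 kb on, with 34.0% at 10 kb and 82.1% at 50 kb.

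Joined wherever neighbouring far peaks lay 10 kb or less apart, the far peaks formed 2536 clusters of 2 or more that held 5763 peaks (33.0%), and 11692 peaks stood alone. Clusters of 3 or more numbered 515 and held 9.86% of far peaks, and 33 clusters had 5 or more. The largest had 9 peaks in 36.9 kb, at chr9:89746331-89783211, with pileups of 4 to 6 and a lowest q of 0.0721. Its nearest start, 141 kb away, is that of GADD45G, a gene induced by stress and DNA damage. The next held 8 peaks in 39.0 kb at chr3:40579152-40618128, 54.4 kb from ZNF621, with pileups of 3 to 6. A cluster of 6 at chr6:134751267-134780951 reached pileup 8 and q 0.0170, and another 6 at chr5:164672534-164692578 reached pileup 7 and q 0.0170, 963 kb from a start. Pileup did not pass 8 in any of these 4 clusters.

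Counts of far peaks were uneven along chromosomes. Over the 1013 windows of 1 Mb in which at least 50% of the sequence was far space, the mean was 9.96 far peaks (median 9, variance 39.9). The variance was 4.004 times the mean, a ratio that would be 1 for peaks placed evenly at random. It was 4.04 for other peaks in the other 1788 windows, whose mean was 21.4. The far space in a window differed between windows. Empty windows numbered 53, of which 18 were on chromosome 1, 14 on chromosome 9 and 8 on chromosome 16, and 0 of the 1788 other windows were empty. Without the 53 the ratio was 3.45.

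The fullest windows lay in part over single large genes. Both chr1:18000001-19000000 and chr21:40000001-41000000 held 36 far peaks. In the first, 12 lay in IGSF21, a synaptic adhesion gene, and in the second 29 lay in DSCAM, a cell adhesion gene of neural wiring. The window chr20:39000001-40000000 held 34, with 0 in a coding RefSeq gene. Then came chr9:118000001-119000000 and chr20:24000001-25000000 with 30 each, the latter with 8 in SYNDIG1, and chr5:158000001-159000000 and chr6:68000001-69000000 with 29 each. The last 3, with 28 each, were chr1:181000001-182000000, where 12 lay in the calcium channel gene CACNA1E, chr9:119000001-120000000 and chr10:2000001-3000000. Median pileup was 4 to 5 in all 10 windows, and at most 3 peaks of a window had q below 0.05.

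Across the genome, 837 coding RefSeq genes lay over a far peak, and 87 of them had their name in the expression table. The ones with most far peaks were chosen after their values were seen. CNTNAP2, a neurexin-related gene, held 38 over 2304 kb (16.5 per Mb), ROBO2, a receptor in axon guidance, 29 over 1743 kb, DSCAM 29 over 836 kb (34.7 per Mb), CTNND2 25 and the transcription factor gene ZFHX3 23. Density within genes varied: MAF, an AP-1 relative of 398 kb, held 15 (37.7 per Mb), while RBFOX1, at 2474 kb, held 13 (5.26 per Mb). Of the 5 genes named first, CNTNAP2, ROBO2, DSCAM and CTNND2 were not in the table. A peak inside the span used for a table gene cannot be far, so such absence follows largely from the rule.

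Hairpins of miRNAs were rarely near. Of 1461 RefSeq hairpins on chromosomes 1 to 22, 17 lay within 1 kb of 12 far peaks, and 2 were overlapped. These were MIR376B, in a cluster of imprinted miRNAs on chromosome 14, under a peak of pileup 4 and q 0.579, and MIR515-2, in a primate cluster on chromosome 19, under a peak of pileup 4 and q 0.354. MIR9-2, known for its part in neural development, lay under 1 kb from a peak of pileup 5 and q 0.179.

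RNA of the genes nearest to far peaks was compared between JunD and empty vector. Reads counted in the genes of the expression table numbered 29617655 in empty-vector replicate 2 and 15967955 to 17871765 in the other libraries. JUND was at 70.3, 63.5 and 103 RPKM (reads per kb of exon, scaled to the reads of the library) with the JunD plasmid and at 13.2, 10.5 and 10.6 with the empty vector, and RNA of the plasmid and of the cells' own gene cannot be told apart. Of the epithelial markers, KRT8 was at 111 to 116 RPKM with JunD and 176 to 183 with the empty vector, and KRT18 at 65.9 to 79.7 and 85.3 to 97.5, with no overlap between the groups for either, while KRT19, KRT5, EPCAM and CDH1 were at 0.224 or less. Leukocyte and endothelial markers PTPRC, PECAM1 and CDH5 were at 0.0375 or less, and PDGFRB, a mesenchymal marker, was at 2.47 to 3.04 with JunD and 5.27 to 6.19 with the empty vector. COL1A1, of fibroblasts, was at 0.255 to 0.362 with JunD and 0.963 to 1.41 with the empty vector, MUC5AC and SCGB1A1 were at 0.861 or less, and FOXJ1 was not matched. What part the KRT8, KRT18, COL1A1 and PDGFRB levels play in the genes below was not tested, and in bulk RNA fewer cells of a type and less RNA per cell cannot be told apart.

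Most genes nearest to far peaks had little RNA. The 17455 peaks had 3953 nearest genes, whose median level with the empty vector was 0.117 RPKM, against 0.544 for all genes of the table. Only 1282 (32.4%) reached the mean of 1 RPKM needed for testing, against 45.3% of the table. Of these, 440 were higher with JunD (34.3%, where 31.5% of all tested genes were higher) and 206 were lower (16.1%, where 14.7% of all were lower), by limma with an adjusted p below 0.05. In all, 50.4% were called, beside 46.2% of all genes tested. Without the filter on low values the order was reversed, at 17.8% of nearest genes beside 20.7% of all genes. The median log2 fold change was 0.10 in both sets, so the nearest genes were close to the background. The split depends on scaling, for nearest genes and for all genes alike. With median-of-ratios scaling 49.2% of the calls among nearest genes were higher, beside 47.7% of the calls among all tested genes. With quantile normalization the shares were 45.1% and 45.03%, in place of 68.1% and 68.2%.

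Genes nearest to the far peaks with q below 0.05 numbered 360, of which 112 were tested. Among them 50 were higher and 13 lower (44.6% and 11.6%), and the median log2 fold change was 0.18. Over all tested genes 31.5% were higher and 14.7% lower, with a median of 0.10. Of the 120 tested genes nearest to 10 or more far peaks, 36 were higher and 19 lower (30.0% and 15.8%). These differences from the background were not tested, and the splits were not computed for these sets under the other scalings.

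WTAPP1, RSAD2, MX2, SERPINB2 and KLF4 rose most among the tested nearest genes. MX2, an interferon-induced gene, was at 35.1, 34.8 and 36.1 RPKM with JunD and at 0.540, 0.512 and 0.497 with the empty vector. The log2 fold change was 5.14 (SE 0.05, limma adjusted p 5.47e-08), and the single far peak nearest to it lay 53.7 kb away with pileup 7. RSAD2, another interferon-induced gene, went from 0, 0.00698 and 0.0116 RPKM to 19.3, 16.01 and 17.6, with a log2 fold change of 5.16 (SE 0.08). Fold changes here are of RPKM plus 0.5, which understates the change of such low genes. WTAPP1, a pseudogene that shares 4.50% of its exon length with MMP1, rose by 5.41 from a mean of 1.67 ± 0.478 to 90.1 ± 8.53 RPKM (SD, n = 3). SERPINB2, an inhibitor of plasminogen activators, rose by 3.75 and the transcription factor KLF4 by 3.59. The 3 libraries of each group did not overlap in any of these 5 genes, as the rule that named them requires. None of their 14 far peaks had q below 0.05.

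ACKR3, EDIL3, CD24, GPC1 and COL5A1 fell most. ACKR3, a scavenging chemokine receptor, was at 0.295, 0.555 and 0.575 RPKM with JunD and at 2.32, 1.69 and 2.70 with the empty vector. It changed by -1.49 on the log2 scale (SE 0.18, limma adjusted p 0.00101). EDIL3, a matrix protein that binds integrins, had a mean of 4.15 ± 0.274 RPKM with JunD and 12.5 ± 0.535 without (SD, n = 3) and a log2 fold change of -1.49. CD24, a surface glycoprotein, changed by -1.35, GPC1, a heparan sulfate proteoglycan, by -1.32, and COL5A1, a collagen chain, by -1.28. The nearest far peaks of these 5 lay 53.0 kb (GPC1) to 130 kb (ACKR3) away.

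**Figure D5:**
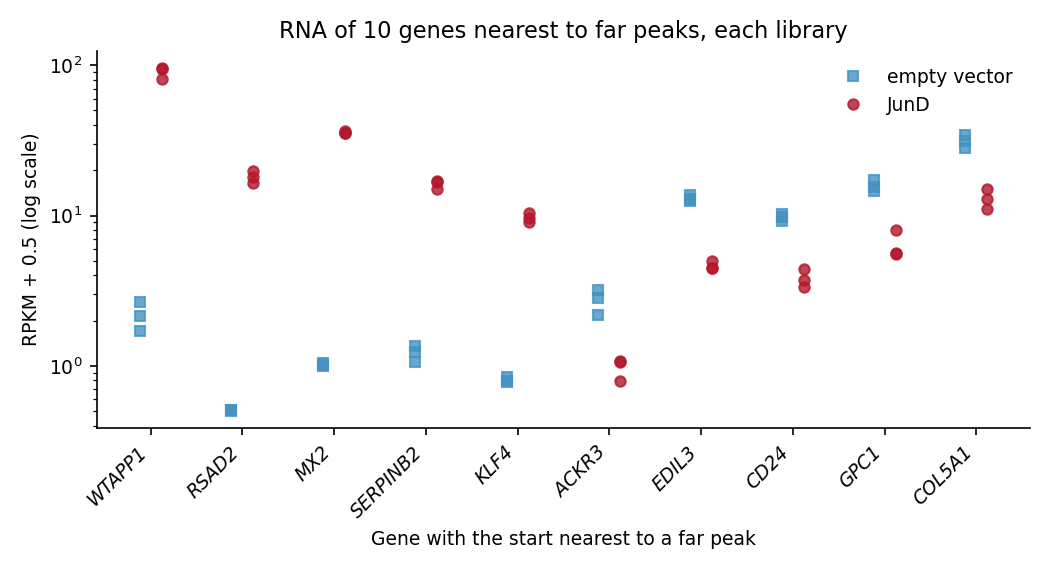
RPKM plus 0.5 (log axis) in each library for the 5 genes that rose most and the 5 that fell most among genes nearest to a far peak, with empty-vector libraries as squares and JunD libraries as circles. The groups do not overlap in any of the 10 genes, which the choice of genes requires.

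Among 20 AP-1 genes listed, 3 were nearest to a far peak and 1 of these was tested. ATF3, a stress-induced partner of Jun proteins, rose from 3.53, 2.95 and 3.78 RPKM to 20.9, 21.0 and 21.0, a log2 rise of 2.46 (SE 0.09, limma adjusted p 5.02e-06), with a far peak of pileup 3 at 62.8 kb. MAF, nearest to 13 far peaks, was too low to test.

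Matrix protease genes gave 4 nearest genes of 18 listed, of which 2 were tested. SERPINB2 rose, as above, and MMP2, a gelatinase, changed by -0.91 (SE 0.05, limma adjusted p 4.33e-05). MMP2 was at 4.02, 4.05 and 4.03 RPKM with JunD and at 8.03, 7.91 and 8.16 with the empty vector, and 9 far peaks were nearest to it, the closest at 52.7 kb. Of 26 cytokine and chemokine genes, 3 were nearest to a far peak and 0 reached the testing limit. CXCL8, which draws neutrophils, was at 1.52, 1.68 and 1.54 RPKM with JunD and at 0.273, 0.401 and 0.344 with the empty vector, and its far peak had pileup 5 at 82.5 kb.

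Developmental regulators known to lie beside gene deserts had 18 of 48 listed genes nearest to a far peak, with 131 far peaks between them. Of the 10 tested, 5 were higher and 0 lower, with a median log2 fold change of 0.23 beside 0.24 over the 19 tested genes of the whole list and 0.10 over all genes tested, 31.5% of which were higher. LMO4, a transcription cofactor, rose by 0.60 (SE 0.10, limma adjusted p 0.00377) from 1.51, 1.57 and 1.42 RPKM to 2.19, 2.57 and 2.89, and 16 far peaks were nearest to it, 2 of them with q below 0.05. SNAI2, a repressor of epithelial adhesion genes, rose by 0.41 (limma adjusted p 0.00905). The other 3 were small: SOX9 by 0.25 (limma adjusted p 0.0213), IRX1 by 0.25 (0.0306) and TBX18 by 0.24 (0.0411), the last named after its values were seen. IRX1 shares 20.6% of its exon length with an overlapping gene. All 3 lost the call under both other scalings, and without the filter on low values IRX1 (adjusted p 0.0575) and TBX18 (0.0800) lost it too. SOX9 also lost it without empty-vector replicate 2 (adjusted p 0.0822) or replicate 3 (0.0616). IRX1 lost it without JunD replicate 2 (0.0785) or 3 (0.0534) and without empty-vector replicate 1 (0.0731) or 2 (0.101). TBX18 lost it without JunD replicate 2 (0.102) or 3 (0.0678) and without empty-vector replicate 1 (0.0805), 2 (0.133) or 3 (0.0905).

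Cadherin and neuronal adhesion genes, also listed as neighbours of gene deserts, had 24 of 41 nearest to a far peak, with 203 far peaks between them. Only 3 of the 24 were tested. CDH2, the N-cadherin gene, changed by -0.50 (SE 0.05, limma adjusted p 0.00048), from 22.1, 22.5 and 23.2 RPKM with the empty vector to 16.3, 15.4 and 15.8 with JunD. CDH4 changed by -0.32 (limma adjusted p 0.0407), a call that was lost without JunD replicate 1 (0.101) or 2 (0.105) and without empty-vector replicate 1 (0.0873), 2 (0.124) or 3 (0.0873), and without the filter on low values (0.0867). CDH13 did not pass, with a log2 fold change of 0.06 (limma adjusted p 0.558) that was below 0 under both other scalings. SLITRK3 was nearest to 29 far peaks and SLITRK6 to 21, with RNA at 0.0156 RPKM or less.

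Of the genes nearest to the 16 far peaks just described by fold, 5 were tested. SPRY2, an inhibitor of growth factor signalling, rose by 0.66 (SE 0.10, limma adjusted p 0.00205) from 2.41, 1.92 and 1.97 RPKM to 3.32, 3.65 and 3.81, and 15 far peaks were nearest to it. NEIL3, PLK2, MED23 and DCUN1D4 did not pass, with log2 fold changes of -0.17, 0.07, 0.17 and 0.03. NEIL3 passed under both other scalings (-0.29 and -0.31), and PLK2, MED23 and DCUN1D4 changed sign under at least one of them. Beside the tallest peaks, FRG1CP changed by 0.37 (limma adjusted p 0.0372). That call was lost without JunD replicate 1 (0.0847) or 2 (0.0910) and without empty-vector replicate 1 (0.112) or 2 (0.109), without the filter on low values (0.0803) and under both other scalings. API5, an inhibitor of apoptosis named after its values were seen, had the most far peaks, 40, tied with the pseudogene MAPRE1P1, and those of API5 lay up to 3231 kb away. It was at 31.4, 32.5 and 31.2 RPKM with JunD and at 27.7, 29.2 and 28.3 with the empty vector (log2 fold change 0.16, limma adjusted p 0.0394). Either other scaling ended this call, and so did leaving out JunD replicate 1 or 2 or any empty-vector library, with adjusted p from 0.0792 to 0.145.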

How the data were processed

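Chromatin and RNA of BEAS-2B cells were sequenced. The submitters' processing notes name GRCh38, MACS2 2.1.1, bedtools 2.25.0, STAR 2.5.3a, Trimmomatic 0.36, Subread 1.5.1 and featureCounts, without their roles. The authors deposited 1 peak list with, per the file header, a fold enrichment (a ratio over background), p-value, q-value and pileup (a coverage signal) per peak, and no summit position. The ChIP depth is unknown. Expression was deposited by the authors as RPKM, and 100% of values were whole reads (tolerance 0.01 read). The reads counted in the listed genes were thus recovered for each library, without reads that fell outside them. Whether counting used strand is not stated in the labels.

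Spans and starts came from 29417 gene names of the expression table, each on 1 chromosome and strand and spanning at most 2.5 Mb. The other 117 names gave no span or start, while exons came from all names of the table. Peaks were put in 5 classes in Python 3.11.15 with pandas 2.3.3. Density used steps of 100 bp between the first and last peak or exon of a chromosome. No genome was used here, so the planned density over whole chromosomes and the motif search in whole peaks were not run, and RefSeq tables of GRCh38.p14 gave other genes and promoter sequences. Shares have exact Clopper-Pearson 95% intervals, for counting error only. With 1 precipitated library there is no test between classes.

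The 13379 genes whose mean RPKM was 1 or more were compared by limma 3.58.1 (R 4.3.3) on log2(RPKM + 0.5), with an intensity trend, two-sided, Benjamini-Hochberg adjusted over all tested genes, threshold 0.05. The step was tested on simulated data. Nothing in the labels shows that the 3 libraries of a group are separate cultures: p-values cover the spread between libraries, which may be technical. Peaks, windows and genes were named by rule: the 10 peaks of highest fold and of highest pileup with ties, the 5 widest, farthest and nearest to the limit, the 10 fullest windows, 5 genes per direction, up to 4 genes per list, and the genes nearest to the tall peaks. One listed gene is not reported here. Members and lists were chosen with earlier results of these data known. Alternatives covered distance limits, stricter peaks, windows, pseudocounts, scaling and left-out libraries.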

Additional observations from a re-analysis of the deposited data

How the results depend on the processing

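The share of far peaks among all peaks was 36.5% with a limit of 25 kb, 21.0% with 100 kb, 30.6% with gene spans of at most 1 Mb, 26.1% among peaks with q below 0.05, 28.4% among those with fold of at least 4 and, chosen after seeing the data, 6.05% with RefSeq genes also counted. The density ratio stayed below 1, at 0.655 and 0.553 with limits of 25 and 100 kb, 0.520 and 0.584 in the stricter lists, 0.633 without empty windows and 0.595 to 0.616 leaving out each chromosome. In the lists with q below 0.05 and fold of at least 4, median pileup was 7 and 6, median fold 4.92 and 4.34 and median width 330 and 307 bp, and in the latter 25.5% had q below 0.05. Neighbours within 10 kb were found for 35.9% (25 kb), 31.3% (100 kb), 2.48% (q), 3.67% (fold) and 33.0% (far peaks only as neighbours), and within 1 and 50 kb for 2.84% and 82.1%. The variance over the mean was 4.17 and 4.07 at 25 and 100 kb, 1.24 and 1.28 in the stricter lists, which hold fewer peaks, 2.12 and 9.36 in windows of 250 kb and 5 Mb, 3.67 without the 10 fullest windows and 3.45 without empty ones. Far peaks in a RefSeq gene made up 34.5% at 25 kb, and 15.9% for coding genes. TGACGTCA was in 0% of the promoter windows.

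Called nearest genes numbered 646, with 645 and 646 at pseudocounts of 0.1 and 1, 705 without the filter, 620 and 608 under the 2 other scalings, and 482 to 700 leaving out each library. Median-of-ratios scaling put the median log2 fold change of all genes at -0.02 and quantile normalization at -0.03, in place of 0.10. With the replicate number as a block 431 were called (33.6% beside 29.9% of all tested genes). Same-numbered libraries had correlations of -0.17, -0.08 and -0.38 in their deviations, no library correlated best with its own number, and the libraries share only a number. Direction reversed, without a call, for CDH13 (-0.0562 and -0.105 under the scalings, -0.0058 without JunD replicate 3), DCUN1D4 (-0.0695, -0.135 and -0.0210 likewise), PLK2 (-0.0622, median-of-ratios) and MED23 (-0.0019, quantile). The causes were not tested. Summit distances, lengths without unknown bases and motifs in whole peaks were not run. ChIP depth is unknown, and the lowest pileup of a far peak was 3.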
